A study of Mus musculus with 2 samples.

Results

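The cells described here are Il6-expressing inflammatory macrophages from the central nervous system (CNS) of mice with experimental autoimmune encephalomyelitis (EAE), a model of multiple sclerosis. They were chosen from 10x Genomics single-cell 3' RNA data by their unique molecular identifiers (UMIs, each standing for 1 captured mRNA molecule). Each cell had to pass a filter of 500 genes, 1000 UMIs and under 10% mitochondrial UMIs, to hold 1 or more Il6 UMIs and 1 or more UMIs of Ptgs2, Lsmem1 or Vegfa, and to hold 0 UMIs of Nos2, Cd3e, P2ry12, Csf3r and Cd79a. The excluded genes mark nitric oxide-producing macrophages, T cells, microglia, neutrophils and B cells. The rule found 184 of 25603 cells that passed the filter, of which 70 of 12305 came from Stat4fl/flCD11cCre mice and 114 of 13298 from wild-type (WT) mice. They are called Il6 cells, or members in the plots.

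Both groups were C57BL/6 mice immunised with myelin oligodendrocyte glycoprotein (MOG) peptide in complete Freund's adjuvant with pertussis toxin, and their CNS leukocytes were taken on day 15. The sort kept cells with both MHC class II and CD11c. Filtered cells with a Cd3e UMI still numbered 1323 in Stat4fl/flCD11cCre and 2910 in WT, and how they passed the sort was not tested. In Stat4fl/flCD11cCre mice the CD11c promoter drives a Cre recombinase that deletes the floxed Stat4 gene, the transcription factor downstream of IL-12, in cells that have used that promoter. Mice were pooled within each genotype and each pool gave 1 library, so genotype and library cannot be told apart, no test across mice is possible, and every interval below is a 95% interval for counting error only. The libraries held 12534 and 13820 barcodes with 120221740 and 122975017 gene UMIs in Stat4fl/flCD11cCre and WT; 43 barcodes occurred in both, and 0 of them belonged to the Il6 cells.

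Interleukin-6 is a secreted cytokine that acts through its receptor IL-6R and the shared chain gp130 to switch on STAT3, with SOCS3 as the feedback inhibitor. Myeloid cells make it after Toll-like receptor or IL-1 signals through NF-kappaB, C/EBP and AP-1 factors. Regnase-1 and tristetraprolin promote the decay of its short-lived mRNA. In EAE it is known for its part in driving T helper 17 cells. Ptgs2 encodes the prostaglandin-making enzyme COX-2, Vegfa a vessel growth factor that hypoxia induces, Cxcl2 a chemokine that draws neutrophils, and Lsmem1 a small membrane protein.

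Il6 and Ptgs2 are genes of the rule, so finding their transcripts in the same cells follows from the choice of cells. The 250 bases before the start of Il6 and of the marker genes Ptgs2 and Cxcl2 are shown as a description. They are RefSeq sequences of build GRCm38.p6, plus strand, at chr5:30012864-30013113, chr1:150099781-150100030 and chr5:90903649-90903898, written 5' to 3' with each motif match in capitals.
Il6: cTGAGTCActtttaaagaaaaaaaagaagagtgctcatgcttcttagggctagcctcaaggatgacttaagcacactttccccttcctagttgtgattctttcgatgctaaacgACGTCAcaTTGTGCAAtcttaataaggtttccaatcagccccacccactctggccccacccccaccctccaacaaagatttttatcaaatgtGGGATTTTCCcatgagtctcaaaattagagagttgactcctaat
Ptgs2: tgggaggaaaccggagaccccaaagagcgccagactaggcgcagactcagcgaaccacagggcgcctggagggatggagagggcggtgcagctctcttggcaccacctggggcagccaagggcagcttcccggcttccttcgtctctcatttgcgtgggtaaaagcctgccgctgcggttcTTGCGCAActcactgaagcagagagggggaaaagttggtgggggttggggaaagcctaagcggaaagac
Cxcl2: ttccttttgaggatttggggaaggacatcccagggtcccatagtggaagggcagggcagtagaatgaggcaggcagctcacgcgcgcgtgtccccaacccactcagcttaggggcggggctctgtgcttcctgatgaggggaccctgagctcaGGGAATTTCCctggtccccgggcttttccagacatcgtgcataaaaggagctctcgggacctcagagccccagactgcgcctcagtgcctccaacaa
The motifs searched on both strands were GGGANTTTCC for NF-kappaB, TTNNGCAA for C/EBP, TGACGT for a cyclic AMP response half-site and TGANTCA for AP-1. In Il6, GGGATTTTCC lay 44 to 35 bases before the start, TTGTGCAA 128 to 121, the half-site on the other strand 136 to 131, and the AP-1 letters TGAGTCA 249 to 243. Ptgs2 held the C/EBP letters TTGCGCAA 69 to 62 bases before its start, and Cxcl2 the NF-kappaB letters GGGAATTTCC 97 to 88 bases before its start. Of 32851 promoter windows of the same length, covering 27025 genes, 0.356% held the NF-kappaB letters, 9.56% the C/EBP letters, 6.47% the half-site and 6.75% the AP-1 letters. These matches describe the letters and do not show binding.

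The values that chose the cells are given as a description. Il6 UMIs per cell ran from 1 to 29 with a median of 2 in Stat4fl/flCD11cCre and from 1 to 28 with a median of 2 in WT. At the edge of the rule stood the 30 Stat4fl/flCD11cCre cells (42.9%) and 45 WT cells (39.5%) with 1 Il6 UMI, and just outside it the 458 and 567 cells that met every other condition with 0 Il6 UMIs, called counterparts here. A small number of cells carried much of the transcript: 6 cells with 10 or more UMIs held 45.7% of all Il6 UMIs of the Stat4fl/flCD11cCre cells, and 6 held 24.4% in WT. Ptgs2 was the second gene in most, with a UMI in 60 of 70 and 97 of 114 cells, against 39 and 50 for Vegfa and 16 and 30 for Lsmem1.

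**Figure D1:**
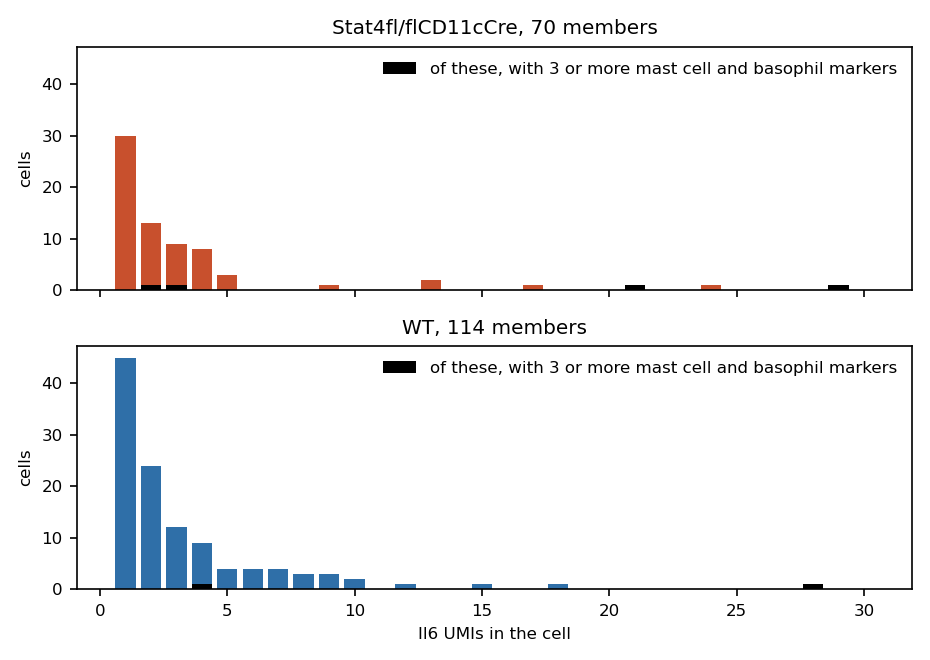
Number of members (vertical axis) by Il6 UMIs in the cell (horizontal axis), Stat4fl/flCD11cCre above WT, with members that hold 3 or more mast cell and basophil markers in black. The bars are highest at 1 UMI, with 30 and 45 members, and the highest member of each library, at 29 and 28 UMIs, is basophil-marked.

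The rule removed most cells in which Il6 was seen beside a second gene. Of 468 and 710 such cells in Stat4fl/flCD11cCre and WT, 398 (85.0%) and 596 (83.9%) held an excluded gene. Csf3r was present in 356 and 516 of them, P2ry12 in 279 and 419, and both in 248 and 381. Cells with both genes had a median of 24154.5 and 24051 UMIs. Their microglial list summed to 7790 and 5517 CPM (UMIs of a gene per 1000000 gene UMIs) and their neutrophil list to 8697 and 4569 CPM. The neutrophil list was at 9857 and 7624 CPM in all cells with P2ry12 and none of Cd3e and Cd79a. It was at 69821 and 43157 CPM in cells with Csf3r and none of P2ry12, Cd3e and Cd79a. The part of merged cells in this was not tested. Cells removed by Csf3r without P2ry12 numbered 108 and 135. Their Ccr2 level was 581 and 570 CPM and their Il6 level 260 and 315 CPM. In the Il6 cells Ccr2 stood at 673 and 569 CPM and Il6 at 339 and 384 CPM. The neutrophil list set the 2 groups apart, at 9631 and 2769 CPM in these removed cells against 483 and 638 CPM in the Il6 cells. At least 3 of its markers were seen in 27.8% and 21.5% of the removed cells and 11.4% and 10.5% of the Il6 cells. Il6 was seen in 922 and 1024 filtered cells in all, so the Il6 cells are a minor part of the cells with an Il6 UMI.

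Most of the cells carried macrophage and monocyte markers, with exceptions. At least 3 of 12 macrophage and monocyte markers were detected in 66 of 70 Stat4fl/flCD11cCre cells (94.3%) and 111 of 114 WT cells (97.4%). So they were in 88.9% and 84.8% of counterparts and in 84.4% and 74.2% of all filtered cells. This count therefore does not set the Il6 cells apart from other myeloid cells here. The list summed to 19371 and 18713 CPM, against 19308 and 15410 CPM in counterparts. Lyz2, lysozyme of myeloid cells, stood at 16048 CPM in Stat4fl/flCD11cCre cells and 15271 in WT cells. Ccr2, the receptor that brings monocytes into tissue, was at 673 (616 to 734) CPM in Stat4fl/flCD11cCre and 569 (523 to 618) CPM in WT cells, and 87.1% and 83.3% of the cells held it. The classical monocyte list, which includes Ccr2, Ly6c2, Plac8 and Vcan, summed to 8459 and 9705 CPM, against 6597 and 5939 CPM in counterparts. These genes are known from monocytes that have lately entered tissue. The microglial list summed to 268 and 325 CPM, against 380 and 599 CPM in counterparts.

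An exception is a few cells with mast cell and basophil markers, 4 in Stat4fl/flCD11cCre and 2 in WT. They held 310 and 318 UMIs of Mcpt8, a basophil protease, and only 17 and 2 UMIs of Lyz2. They are rare but rich in Il6, with 55 of 256 Il6 UMIs in Stat4fl/flCD11cCre and 32 of 381 in WT, and they had 78 and 31 UMIs of Il1b. Only 16 and 9 cells of this kind passed the filter in the whole series, and 9 and 6 of them had an Il6 UMI. Another is 8 cells in each library with 3 or more of 10 conventional dendritic cell markers, and that list summed to 367 and 188 CPM in Il6 cells, against 279 and 273 CPM in counterparts. Cd209a, a lectin of type 2 dendritic cells, was seen in 9 and 8 Il6 cells. The plasmacytoid dendritic cell list, which includes the widely expressed Bst2, summed to 562 and 554 CPM, against 890.5 and 846 CPM in counterparts, and 8 and 14 Il6 cells held 3 or more of its 8 markers. The T cell list summed to 7.9 and 25.2 CPM and the natural killer list to 2.6 and 1.0 CPM. The neutrophil list summed to 483 and 638 CPM in Il6 cells, against 20333 and 11996 CPM in counterparts, and the astrocyte and choroid plexus list to 518 and 41.3 CPM, against 5867 and 9861 CPM.

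Surface antibody tags are a readout that the rule did not use, and each is compared here with the same tag in Cd3e-bearing cells. The CD11b tag, the integrin of myeloid cells, had a median of 887.5 and 773.5 UMIs per Il6 cell in Stat4fl/flCD11cCre and WT, against 28 and 40 in Cd3e-bearing cells. CD172a, carried by monocytes, macrophages and type 2 dendritic cells, had a median of 425 and 291, against 104 and 48 in Cd3e-bearing cells. Counterparts lay close for both tags, at 821.5 and 777 for CD11b and 384.5 and 260 for CD172a. The tags for MERTK, a receptor of resident macrophages that clear dead cells, and for XCR1 of type 1 dendritic cells had smaller gaps, with a MERTK median of 51.5 and 22.5 against 35 and 14 in Cd3e-bearing cells and an XCR1 median of 49 and 21.5 against 27 and 13. CD317, the tag for the protein that Bst2 encodes, had 53.5 and 40 against 23 and 16.

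Il6 was also detected outside the chosen cells, and whether this is expression, free RNA or merged cells was not tested. At full depth 9.18% and 11.2% of cells with a Nos2 UMI and none of the other excluded genes held Il6. So did 9.31% and 10.2% of cells with P2ry12 and none of Cd3e and Cd79a, and 3.02% and 3.40% of Cd3e-bearing cells. Thinned to 2500 UMIs, 0.85% and 0.65% of Cd3e-bearing cells held it. Median depth was 9752 and 8161 UMIs in the Il6 cells and 9582.5 and 7178 in counterparts, so the cells compared next were of like depth within a library, and deeper in Stat4fl/flCD11cCre.

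Il6 cells and counterparts differ in the rule gene, and the counterparts also hold cells of other types, so this contrast is a description. Of 7436 genes with 50 or more UMIs, 143 (1.92%) were 1.5-fold or more higher in the Il6 cells of both libraries and 373 (5.02%) lower, and nothing is read from member counts against these shares. Of the 10 highest genes by rank, 3 were basophil genes (Prss34, Mcpt8, Cpa3), which those few cells carry. The others were the inflammatory genes Cxcl2, Il1b, Nfkbia and Nfkbiz with Id3, Nrg1 and Csrnp1. The 10 lowest were genes of neutrophils (Camp, Ngp, S100a8, S100a9, Retnlg, Ltf), killer lymphocytes (Gzma), plasmacytoid dendritic cells (Ly6d, Cox6a2) and choroid plexus (Ttr), which the counterparts hold. Cxcl2 had 3323 and 4432 CPM in Stat4fl/flCD11cCre and WT Il6 cells, against 906 and 1384 CPM in counterparts. Il1b, the IL-1 beta cytokine, had 5472 and 5301 CPM in Il6 cells, against 2259 and 2046 in counterparts. Neither gene's interval in the Il6 cells reached the level of the counterparts in the same library.

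Some genes of the NF-kappaB pathway and its feedback were also higher in Il6 cells than in counterparts. Nfkbia, the main inhibitor of NF-kappaB, had 1585 and 2324 CPM in Il6 cells and 652 and 952 in counterparts. Nfkbiz, the nuclear partner of NF-kappaB that Il6 induction needs, had 632 and 862 CPM in Il6 cells and 234 and 343 in counterparts. In all 7 of 20 measured genes of the NF-kappaB feedback list passed 1.5-fold upward in both libraries and 0 downward, the others being Nfkbib, Nfkb1, Tnfaip3, Tnip3 and Ripk2. Of the genes that control Il6 mRNA, 4 of 10 did: Nfkbiz, Tnfaip3 and the decay factors Zfp36 (tristetraprolin) and Zc3h12a (Regnase-1). Over all measured genes the shares were 1.92% upward and 5.02% downward, and nothing is read from the list counts. Zfp36 had 1498 and 1624 CPM in Il6 cells and 825 and 772 in counterparts.

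Within the IL-6 family itself the kin cytokine Osm and the inhibitor Socs3 were higher, while the receptors were not past the threshold. Osm, which signals through gp130, had 403 (359 to 451) and 304 (271 to 341) CPM in Il6 cells, against 159 and 93.2 CPM in counterparts. Socs3 had 403 and 501 CPM, against 214 and 254. Il6ra, the ligand-binding receptor, stood at 96.7 CPM in both libraries' Il6 cells, against 76.3 and 79.0 CPM in counterparts, and Il6st (gp130) at 23.8 and 23.2, against 27.4 and 20.8. Of 15 measured genes of Toll-like receptor and IL-1 sensing, 4 were 1.5-fold or more higher in both libraries and 0 lower: Tlr2, Clec4e, Cd14 and Nlrp3. Over all measured genes 1.92% were higher and 5.02% lower, and nothing is read from this count. Cd14, a co-receptor for bacterial lipopolysaccharide, had 1331 and 1448 CPM in Il6 cells and 754 and 590 in counterparts, and Nlrp3, the inflammasome sensor, 291 and 333 against 107 and 139. Of the other top-ranked genes, Id3, an inhibitor of helix-loop-helix factors, had 193 and 298 CPM against 68.3 and 89.9, the growth factor Nrg1 429 and 321 CPM against 161 and 124, and Csrnp1, a nuclear protein, 250 and 297 CPM against 92.5 and 115.

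**Figure D2:**
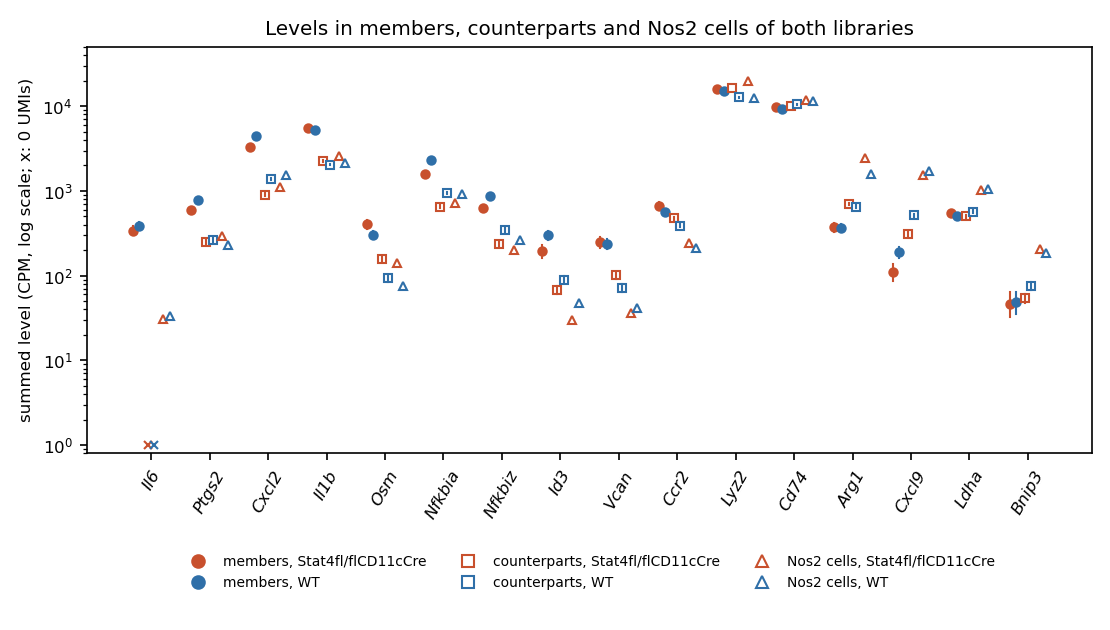
Summed level in CPM on a log axis for 16 genes in members (filled circles), counterparts (open squares) and Nos2 cells (open triangles) of Stat4fl/flCD11cCre (orange) and WT (blue), with 95% counting intervals for members and counterparts, no bars for Nos2 cells, and a cross at the bottom for 0 UMIs. Cxcl2 lies at 3323 and 4432 CPM in members and at 906 and 1384 CPM in counterparts, while Lyz2 and Cd74 lie close together in all 3 kinds of cells.

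Some immediate early genes, which tissue dissociation also induces, were higher too. Of 22 measured, 10 passed 1.5-fold upward in both libraries and 0 downward, where 1.92% and 5.02% of all measured genes did. Among the 10 was Ier3, at 1681 and 1323 CPM in Il6 cells and 824 and 669 CPM in counterparts. The part of immediate early genes in the higher inflammatory genes was not tested. In both libraries together, 0 of 16 glycolysis genes passed 1.5-fold upward and 1 downward, and 0 of 17 hypoxia targets and 0 of 10 MHC class II genes passed in either direction. A stricter set, called macrophage-marked here and chosen after seeing the data, had 3 or more macrophage markers and under 3 of each of 9 other lists (neutrophil, mast cell and basophil, astrocyte and choroid, natural killer, plasmacytoid and conventional dendritic cell, T cell, B cell and microglia). It kept 40 of 70 and 76 of 114 Il6 cells and 203 and 283 counterparts. There the log2 ratio was 1.90 in Stat4fl/flCD11cCre and 1.20 in WT for Cxcl2 and 1.16 and 1.04 for Il1b, so both stayed past 1.5-fold.

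Among the Il6 cells, Cxcl2 and Il1b were also higher where more Il6 UMIs were counted. This split is by the rule's own gene and is a description. Stat4fl/flCD11cCre cells with 3 or more Il6 UMIs (27 cells) had 5583 CPM of Cxcl2 and 7691 of Il1b, against 2225 and 4153 CPM in those with 1 UMI. WT cells with 3 or more (45 cells) had 4741 CPM of Cxcl2 and 5682 of Il1b, against 3683 and 5111 with 1 UMI. Osm followed in Stat4fl/flCD11cCre (652 against 248 CPM) and was level in WT (310 against 300.2 CPM), while Cxcl1 went the other way in Stat4fl/flCD11cCre (38.6 against 139 CPM). Arg1, arginase-1, divided the cells in another way and was seen in 19 and 36 of the cells. Cells with Arg1 had more Apoe, a lipid carrier of phagocytes (8891 against 1617 CPM in Stat4fl/flCD11cCre and 6474 against 2417 in WT), more Fn1, fibronectin (1494 against 558 and 1324 against 569), and more Il1a (172 against 20.8 and 340.1 against 98.4).

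The Nos2 cells (98 in Stat4fl/flCD11cCre and 223 in WT) hold a Nos2 UMI and none of the other excluded genes. Set beside them, the Il6 cells had lower levels of part of the glycolysis, hypoxia and interferon-gamma response lists, and Nos2 is itself induced by interferon-gamma. This contrast rests on the rule too, and nothing is read from its counts. Of 4402 genes measured, 308 (7.00%) were 1.5-fold or more higher in both libraries and 306 (6.95%) lower. In the glycolysis list 10 of 16 genes were lower and 0 higher, with medians of -0.82 and -0.78 on the log2 scale, where the medians over all genes were 0.06 and 0.02. Aldoa, an aldolase, had 901 and 862 CPM in Il6 cells and 1644 and 1604 in Nos2 cells, and Ldha, which makes lactate, 544 and 505 against 1022 and 1045. Among hypoxia targets 8 of 16 were lower and 0 higher, with Bnip3, a mitophagy receptor, at 46.4 and 48.4 CPM against 206 and 185.

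Arg1 had 373 and 365 CPM in Il6 cells, against 2477 and 1599 in Nos2 cells. Cxcl9, an interferon-gamma-induced chemokine that draws T cells, had 110 and 188 CPM against 1526 and 1735, and 8 of 19 interferon-gamma response genes were lower with 0 higher. The phagocyte lipid list had 9 of 14 lower, with Apoe at 3796 and 3775 CPM in Il6 cells against 12376 and 9040 in Nos2 cells. The other genes of lowest rank were S100a9 (33.1 and 77.6 CPM against 833 and 827), the complement factor Cfb, the actin regulator Fmnl2 and AA467197. Higher in the Il6 cells were Ccr2 (673 and 569 against 243 and 210 CPM), the matrix proteoglycan Vcan (246 and 236 against 36.4 and 41.6), Id3, Clec10a and Nfkbiz (632 and 862 against 202 and 264 CPM). Il6 cells thus carried more transcript of the monocyte genes Ccr2 and Vcan in each library. Of the 8 genes of the classical monocyte list, 3 were 1.5-fold or more higher in both libraries and 1 lower. Of 22 immediate early genes, 15 were higher and 0 lower, and the part of dissociation in that was not tested.

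**Figure D3:**
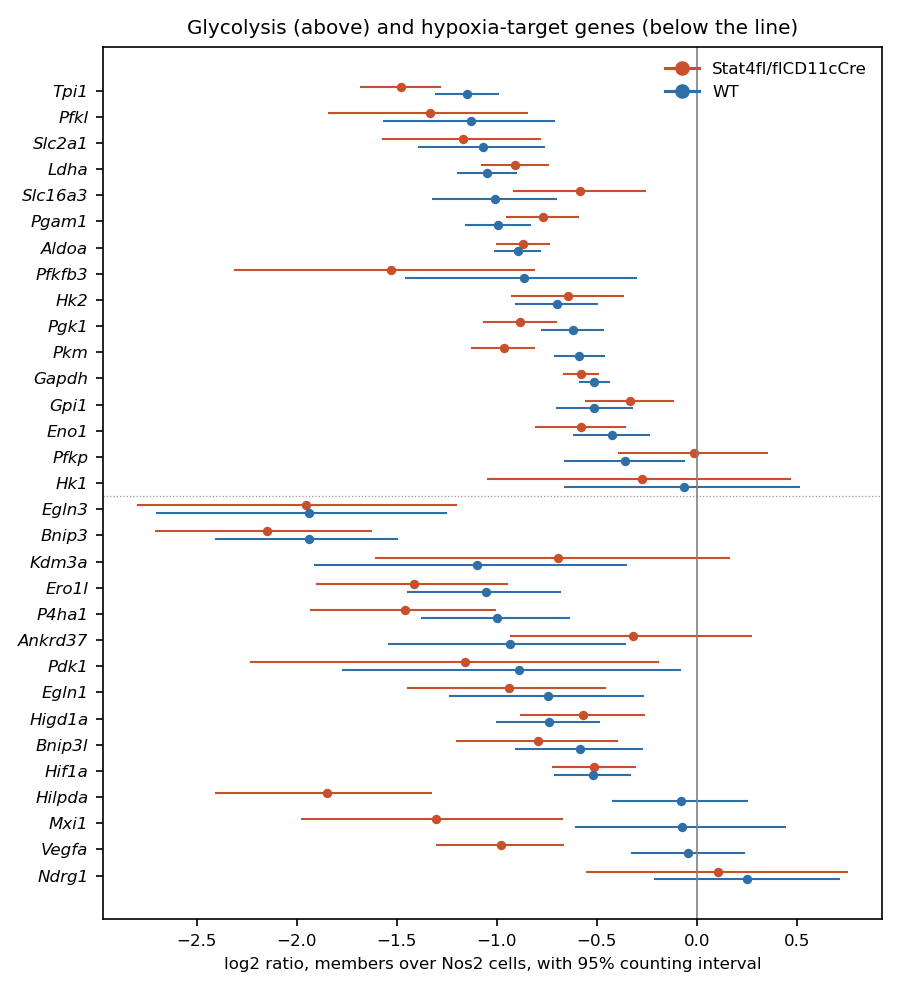
Log2 ratio of members over Nos2 cells for the genes of the glycolysis list (above the dotted line) and the hypoxia target list (below it), 1 point per library, Stat4fl/flCD11cCre in orange above WT in blue, with 95% counting intervals; Slc2a1, on both lists, is drawn once. Most points lie left of 0, with list medians of -0.82 and -0.78 for glycolysis.

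The number of Il6 cells was compared between genotypes with 3 denominators. They were 0.569% (0.444 to 0.718) of filtered Stat4fl/flCD11cCre cells and 0.857% (0.708 to 1.03) of WT cells, a ratio of 0.664 (0.486 to 0.901, exact). Cells with a UMI of P2ry12, a receptor of microglia, and none of Cd3e and Cd79a made up more of the Stat4fl/flCD11cCre library. They were 6867 of its cells against 5329 in WT. With every cell that held a P2ry12 UMI left out, the shares were 1.37% of 5121 and 1.58% of 7229 cells, a ratio of 0.867 (0.634 to 1.18). Among Il6 cells and counterparts together, the Il6 cells were 13.3% of 528 in Stat4fl/flCD11cCre and 16.7% of 681 in WT, a ratio of 0.792 (0.580 to 1.08). Only the first ratio's interval lies below 1, so a lower share is seen over all cells and was not detectable at this depth over the others. Over macrophage-marked cells alone the ratio was 0.761 (0.505 to 1.13), and with more lineage genes excluded it was 0.725 (0.495 to 1.06).

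Within the Il6 cells the level of Il6 differed little. It was 339 (299 to 383) CPM in Stat4fl/flCD11cCre and 384 (346 to 424) CPM in WT, a log2 ratio of -0.18 (-0.41 to 0.05), in a gene the rule used. Il1b had 5472 and 5301 CPM, a log2 ratio of 0.05 (-0.01 to 0.10), and Osm 403 and 304 CPM, a log2 ratio of 0.40 (0.17 to 0.64), with 0.77 in counterparts. Of the cytokines that act through or beside STAT4, Il12b, the chain shared by IL-12 and IL-23, had 0 UMIs in the Il6 cells of both libraries, and Il23a had 9.27 and 8.06 CPM.

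Stat4 itself had 47.7 (33.4 to 66.0) CPM in Stat4fl/flCD11cCre Il6 cells and 37.3 (26.2 to 51.4) CPM in WT Il6 cells, from 36 and 37 UMIs in 10 and 18 cells. In Stat4fl/flCD11cCre 1 cell held 41.7% of its UMIs, and the log2 ratio was 0.36 (-0.35 to 1.06) with that cell and -0.07 without the highest cell of each library, and -1.18 in macrophage-marked cells. The counts are 3' tags and the labels do not say which exons are floxed, so this level does not check the deletion.

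Some other inflammatory genes were among those that differed between genotypes. Of 4235 genes with 50 or more UMIs over both libraries' Il6 cells, 219 (5.17%) were 1.5-fold or more higher in Stat4fl/flCD11cCre and 326 (7.70%) lower, and the median log2 ratio was -0.00. Among inflammatory cytokines 5 of 8 measured genes were lower and 0 higher, with a median of -0.70. With cells thinned to 2500 UMIs it was 2 of 6 and a median of -0.21. Thinning also removes UMIs of the excluded genes, and the rule was applied again to the thinned counts. Cells excluded at full depth can thus enter. Each genotype value given with cells thinned therefore compares a partly different set of cells, 56 Il6 cells in Stat4fl/flCD11cCre and 107 in WT. Tnf, tumour necrosis factor, had 172 (144 to 204) CPM in Stat4fl/flCD11cCre and 456 (415 to 500) CPM in WT, a log2 ratio of -1.41 (-1.70 to -1.12), and it was detected in 31 of 70 and 84 of 114 cells. Tnfsf9, the 4-1BB ligand, had 127 and 253 CPM (-0.99) and Il1rn, the IL-1 receptor antagonist, 216 and 352 CPM (-0.70). Il1a had 66.2 and 179 CPM (-1.44), but 0.20 with cells thinned.

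Counterparts showed the Tnf difference as well, at 74.3 CPM in Stat4fl/flCD11cCre and 212 CPM in WT (-1.52). Of the 8 cytokine genes measured, 3 were lower there, and all 3 were among the 5. The share of all genes lower in counterparts was not counted, so nothing is read from this count or overlap. The lower Tnf level in Stat4fl/flCD11cCre was thus present in cells with and without an Il6 UMI.

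Some interferon-induced genes were lower as well. Of 19 interferon-gamma response genes 8 were lower in Stat4fl/flCD11cCre Il6 cells and 1, Ciita, was higher (0.84, but -1.92 with cells thinned), with a median log2 ratio of -0.40; in counterparts 8 of these 19 were lower, 6 of them shared, with a median of -0.39. Of 16 type I interferon response genes 6 were lower and 1 higher, with a median of -0.52. In counterparts 7 were lower, 5 of them shared, with a median of -0.56. The share of all genes lower in counterparts was not counted, so nothing is read from the counterpart counts and overlaps of either list. Cxcl10, a chemokine for T cells, had 384 (341 to 431) CPM in Stat4fl/flCD11cCre and 1148 (1083 to 1217) CPM in WT, a log2 ratio of -1.58 (-1.77 to -1.39). In Stat4fl/flCD11cCre 1 cell held 39.3% of the UMIs, and without the highest cell of each library the ratio was -2.09. Gbp5, a guanylate-binding protein, had 114 and 291 CPM (-1.35; counterparts -1.11), and Isg15, a ubiquitin-like modifier, 238 and 442 CPM (-0.89; counterparts -0.74).

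For some genes the ratio was farther from 0 in the Il6 cells than in counterparts, a difference that was not tested. Iigp1, an immunity-related GTPase, had 11.9 (5.45 to 22.6) CPM in Stat4fl/flCD11cCre and 128 (107 to 152) CPM in WT Il6 cells, a log2 ratio of -3.42 (-4.59 to -2.45), against -1.03 (-1.26 to -0.80) in counterparts. Rsad2, the antiviral enzyme viperin, had 18.5 and 102 CPM, -2.46 (-3.38 to -1.64), against -0.76 in counterparts, but -0.07 with cells thinned. The immunoproteasome subunit Psmb8 was level at 889 and 855 CPM (0.06). With only macrophage-marked cells the interferon-gamma list had 5 of 18 genes lower and a median of -0.16, and the type I list 4 of 13 and -0.37.

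**Figure D4:**
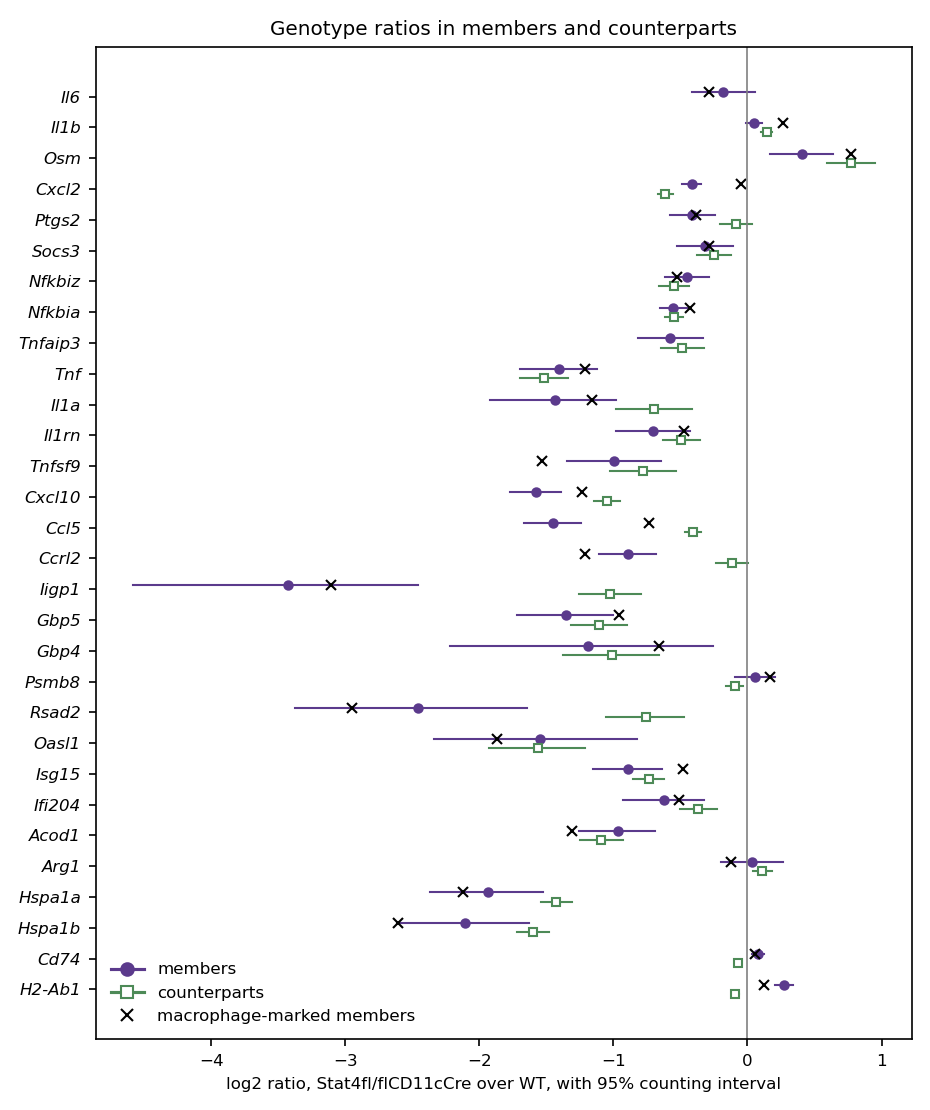
Log2 ratio of Stat4fl/flCD11cCre over WT for named genes in members (purple dots) and counterparts (green open squares), with 95% counting intervals, and in macrophage-marked members (black crosses, no interval). Tnf, Cxcl10 and Gbp5 lie left of 0 in all 3 sets, and Iigp1 lies farther left in members (-3.42) than in counterparts (-1.03).

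Among chemokines the result depended more on which cells were counted. In the chemokine list 5 of 10 measured genes were lower and 0 higher, with a median of -0.59, which was 0.03 with cells thinned. Ccl5 had 305 and 834 CPM (-1.45; counterparts -0.41) and Ccrl2, a chemokine-binding receptor, 335 and 623 CPM (-0.89; counterparts -0.11). Cxcl2 had 3323 and 4432 CPM, -0.42 (-0.49 to -0.34), with -0.61 in counterparts, yet -0.05 in macrophage-marked cells and 0.08 with cells thinned. Ccl2, the ligand of CCR2, had 142 and 286 CPM (-1.01), but 38.7% of the WT UMIs sat in 1 cell and the ratio was 0.22 in macrophage-marked cells, 0.50 with cells thinned and 0.16 with only Ptgs2 or Lsmem1 as the gene required beside Il6. Ccl4 was at 1079 and 1165 CPM (-0.11) with the basophil-marked cells and at a log2 ratio of -1.50 without them.

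Of 20 NF-kappaB feedback genes 4 were 1.5-fold or more lower and 0 higher, and 2 were lower without mitochondrial and ribosomal genes in the scaling. Below that threshold lay Nfkbia at 1585 and 2324 CPM (-0.55, with -0.55 in counterparts) and Nfkbiz at 632 and 862 CPM (-0.45; counterparts -0.55). Ptgs2 had 592 (538 to 650) and 787 (733 to 844) CPM, a log2 ratio of -0.41, which was 0.05 with cells thinned. Acod1, which makes itaconate, had 189 and 371 CPM (-0.97; counterparts -1.09), with -1.88 without the basophil-marked cells and -0.09 with cells thinned. Slc7a2, an arginine transporter, had 23.8 and 87.6 CPM (-1.88; counterparts -0.23), while Arg1 was level at 373 and 365 CPM (0.03). Glycolysis genes did not pass 1.5-fold (0 of 16). Of MHC class II genes 1 of 7 did, upward, and H2-Ab1, an antigen-presenting chain, had 4547 and 3764 CPM (0.27), which was -0.28 with cells thinned.

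Of 10 heat shock genes, which handling also induces, 2 were 1.5-fold or more lower and 0 higher, with a list median of -0.11. Hspa1a had 76.8 and 294 CPM in Stat4fl/flCD11cCre and WT Il6 cells (-1.94) and 173 and 466 CPM in counterparts (-1.43), and Hspa1b a log2 ratio of -2.11 and -1.60. Their part in the lower cytokine and interferon genes was not tested. The remaining genes of lowest rank rested on few cells. Areg, an EGF-family ligand, was seen in 7 and 12 cells (-2.07, but 0.26 with cells thinned). Gem, a small GTPase, was seen in 4 and 6 with 61.5% of the WT UMIs in 1 cell (-2.98, but 2.10 with cells thinned). Serpina3g, a protease inhibitor, was seen in 6 and 19 (-2.78, but -0.29 with cells thinned).

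Few of the genes of highest rank in Stat4fl/flCD11cCre were of macrophages. Ttr, a transthyretin of choroid plexus, had 98.6% of its UMIs in 1 cell, Klrd1 and Cd7 are lymphocyte genes seen in 8 and 6 cells, Gata2 and Hdc are basophil genes, and Cd209a, a lectin of type 2 dendritic cells, was seen in 9 cells. Timp1, an inhibitor of matrix proteases, had 109 (86.4 to 135) CPM in Stat4fl/flCD11cCre and 19.1 (11.5 to 29.9) CPM in WT, a log2 ratio of 2.50 (1.77 to 3.31), in 11 and 7 cells. Casp6, a caspase, had 67.5 and 20.1 CPM in 25 and 18 cells (1.75), but -1.07 with cells thinned.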

How the data were processed

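Gene expression and 5 surface antibody tags were read in single cells with the 10x Genomics 3' version 3 kit. The deposited values are UMI counts for 32285 genes per cell barcode, which per the file headers the authors made with Cell Ranger 7.0.0; the submitters' processing notes name the mm10 build. Whether doublets were removed and introns counted was not stated there.

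The counts were summed over Il6 cells, counterparts and Nos2 cells of each library and divided by the summed gene UMIs to give CPM, with exact Poisson intervals. Ratios have exact conditional binomial intervals and shares exact Clopper-Pearson intervals, all at 95%. With 1 library per genotype no p-value was computed. A gene was counted past 1.5-fold by its ratio alone, among genes with 50 or more UMIs. The code was tested on simulated data. Doublets were kept; in an alternative the 10% of cells with the highest Scrublet score in scanpy 1.11.5 were removed. A cell was called basophil-marked with 3 or more mast cell and basophil markers, and macrophage-marked with 3 or more macrophage markers and under 3 of each of 9 other lists.

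The members and gene lists were chosen with earlier results of these data known. Named genes are the genes of the rule and its markers, Stat4, Arg1, Il1b, Tnf, Il23a and Il12b, the 8 highest and 8 lowest ratios by genotype (bound nearest to 1, 50 or more CPM in the higher library), the 10 highest and lowest against counterparts, the 6 highest and lowest against Nos2 cells, and per list up to 4 genes with the most UMIs and 4 with the largest ratio. Ccr2, Vcan, Bnip3, Ldha, Aldoa, Il6ra, Il6st, Zc3h12a, Psmb8, Fn1 and other genes of lists beyond this rule were named after their values were seen. Promoter sequences of 3 genes, all matched by symbol, came from RefSeq. The values of 1 gene are not reported here.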

Additional observations from a re-analysis of the deposited data

Results flagged for a closer look

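For 11 named or listed genes the ratio of Il6 cells over counterparts lay above 1 in one genotype and below 1 in the other, with both counting intervals clear of 1. There is 1 library per genotype, so the difference between genotypes was not tested. The values are log2 differences, Stat4fl/flCD11cCre minus WT.

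Among interferon-induced genes Iigp1 differed by -2.4, with 11.9 CPM in Il6 cells and 50.6 CPM in counterparts of Stat4fl/flCD11cCre, and 128 and 103 CPM in WT. Rsad2 differed by -1.7, with 18.5 and 34.6 CPM in Stat4fl/flCD11cCre Il6 cells and counterparts, and 102 and 58.7 CPM in WT. Serpina3g, a protease inhibitor of activated leukocytes, differed by -2.53, with 10.6 and 44.8 CPM in Stat4fl/flCD11cCre and 72.5 and 53.2 CPM in WT. With cells thinned, the log2 genotype ratio in Il6 cells was -2.59 for Iigp1, -0.07 for Rsad2 and -0.29 for Serpina3g.

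Among cell cycle genes Birc5 (survivin) differed by -1.94 and Stmn1 (stathmin) by -0.851. Among myeloid genes Chil3, a chitinase-like protein of monocytes, differed by -0.781, Lyz2 by -0.309, and Fcgr1, the high-affinity IgG receptor, by 0.491. H2-DMa, which loads peptide onto MHC class II, differed by 0.59. Casp6 differed by 1.63, and the lymphocyte gene Cd7, seen in 6 Il6 cells of Stat4fl/flCD11cCre and 5 of WT, by 2.3.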

How the results depend on the processing

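No paired analysis was possible because each genotype is 1 pooled library. The alternatives that left out cells with 3 or more mast cell and basophil markers, kept macrophage-marked cells only, or left out the highest cell of each gene were chosen after seeing the data. The ratio of the share of Il6 cells stayed below 1 in all 8 alternatives run, each taken over the cells that the alternative kept. It was lowest, at 0.544, with cells thinned to 2500 UMIs, over 11538 and 12001 cells. It was highest, at 0.761 (interval 0.505 to 1.13), in macrophage-marked cells, over only 1425 and 2060 cells. The interval also crossed 1 with the wider exclusion (0.725, 0.495 to 1.06). Of 815 genotype ratios of 69 genes under alternatives, 685 lay within the main interval and 105 outside it with no turn of a called direction, and 25 turned sign where the main interval lay clear of 0. Where the main interval spans 0, a further 38 values of 15 genes, Stat4 among them, changed sign. Scaling by median-of-ratios size factors or without mitochondrial and ribosomal genes moved none.

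Genes past 1.5-fold by genotype numbered 1745 higher and 2089 lower without the 50-UMI minimum, 84 and 97 with cells thinned, and 113 higher in macrophage-marked cells. Higher than counterparts in both libraries were 76 genes without the highest cell, 94 thinned and 70 with Ptgs2 or Lsmem1 as the required gene. Lower than counterparts were 775 without the highest cell, 769 at a minimum of 20 UMIs, 183 thinned, 159 with Ptgs2 or Lsmem1 and 169 in macrophage-marked cells. The thinned counts test fewer genes, and the cause of the others was not tested.

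Genotype ratios (log2) turned with cells thinned for Klrd1 (-0.0659), Casp6 (-1.07), Gem (2.10), Areg (0.26), Ptgs2 (0.0492), Lsmem1 (0.0496), Cxcl2 (0.0783), Socs3 (0.0659), Ccl6 (0.32), Ccl2 (0.50), Il1a (0.20), Icam1 (0.0674), Cd74 (-0.30), H2-Ab1 (-0.28), Ciita (-1.92), H2-DMa (-0.30) and H2-DMb1 (-1.14). With the wider exclusion Ccl6 (0.15) and Cd74 (-0.10) turned, with Ptgs2 or Lsmem1 required Ccl2 (0.16), in macrophage-marked cells Hdc (-0.51), Cd209a (-1.37) and Ccl2 (0.22), without basophil-marked cells Hdc (-0.96), and without the highest cell Ttr (-1.19). Thinned cells also had to meet the rule again, so cells that lost their UMIs of the excluded genes by thinning could enter. Counterparts numbered 643 in Stat4fl/flCD11cCre and 734 in WT there, against 458 and 567 at full depth. Genes under 50 UMIs there have wide intervals.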
